A study of Mus musculus with 28 samples.

Results

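The MAP kinase phosphatases are the dual specificity phosphatases that switch off MAP kinases, and 10 genes of this family were followed here among the 22919 genes that the study's comparison tables list. They were chosen by name, as Dusp1, Dusp2, Dusp4, Dusp5, Dusp6, Dusp7, Dusp8, Dusp9, Dusp10 and Dusp16, and all 10 were found. Nascent RNA was measured by Bru-seq, which gives living cells bromouridine, pulls down the RNA that contains it and sequences only what was made during that pulse. The cultures were forebrain cells of CD1 mouse embryos at embryonic day 18, a mixture of neurons, astrocytes and oligodendrocyte precursors, each replicate a pool of embryos. Every culture received a lentivirus on day in vitro 14, so no group was without virus: its shRNA was a control (shCtrl) or targeted Rai1 (shRai1). On day 17 each arm was given vehicle (water), 1 µM tetrodotoxin (TTX, a sodium channel blocker that silences firing) or 20 µM bicuculline (BIC, which blocks inhibitory GABA-A receptors and raises firing) for 4 hours, with 2 mM bromouridine in the last 20 minutes. This gave 16 libraries in 6 groups, 3 in each except shCtrl vehicle (replicates 1 and 2) and shCtrl BIC (replicates 2 and 3). RAI1 ChIP-seq of 12 samples was not analysed here.

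MAP kinases (ERK, JNK and p38) are switched on when an upstream kinase phosphorylates a threonine and a tyrosine of their activation loop, and the dual specificity phosphatases remove both phosphates. In neurons, calcium entry during firing activates the ERK cascade, and several of these phosphatases are themselves induced by MAP kinase signalling, so they are known as feedback inhibitors. The family is usually sorted into 3 classes, which order the results. Dusp1, Dusp2, Dusp4 and Dusp5 are nuclear and inducible, Dusp6, Dusp7 and Dusp9 are cytoplasmic and prefer ERK, and Dusp8, Dusp10 and Dusp16 prefer JNK and p38.

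The values were the authors' summaries: 7 tables of comparisons, and a table with 1 pooled FPKM per condition and its bounds, so no value per library is given and the depth of single libraries is unknown. FPKM is a level per gene length, and a log2 change is a difference between groups, given with its standard error (SE) and called at an adjusted p under 0.05. In shCtrl the summed FPKM of 8 neuron markers ranged from 510 to 571 over the 3 treatments, although single markers moved in opposite directions from vehicle to BIC (Gad1 from 97.0 to 148, Tubb3 from 152 to 78.6). The sum of 6 astrocyte markers ranged from 148 to 195, that of 5 oligodendrocyte precursor markers from 92.0 to 129, that of 5 microglia markers from 19.3 to 28.1 and that of 4 endothelial markers from 1.27 to 2.01, with the endothelial marker Cldn5 listed at 0 in TTX and BIC. The authors' deposited tables did not call nascent Rai1 between the arms (log2 change 0.16 in vehicle, -0.12 under TTX, 0.03 under BIC). These are values of newly made RNA, so the depth of the knockdown in mature Rai1 RNA was not measured. Directions between arms rest on the labels alone. In these bulk cultures, fewer cells of a type and less RNA per cell cannot be told apart.

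Promoter sequence was taken from RefSeq on GRCm38.p6 for the 8 members with an entry, all but Dusp4 and Dusp9. The 250 bases before the start were searched on both strands for TGACGTCA (the full cyclic AMP response element, CRE), TGACG (its core, which every full site also contains), TGANTCA (the AP-1 site) and the CArG box, the core of the serum response element. These 4 promoters are shown because they differ in those motifs while Dusp5 and Dusp6 had nearly the same response, with the full CRE of Dusp1 and Dusp8 and the CArG boxes of Dusp5 in capitals. They lie at chr17:26508473-26508722 on the minus strand (Dusp1), chr19:53528895-53529144 on the plus strand (Dusp5), chr10:99262981-99263230 on the plus strand (Dusp6) and chr7:142095285-142095534 on the minus strand (Dusp8).
Dusp1: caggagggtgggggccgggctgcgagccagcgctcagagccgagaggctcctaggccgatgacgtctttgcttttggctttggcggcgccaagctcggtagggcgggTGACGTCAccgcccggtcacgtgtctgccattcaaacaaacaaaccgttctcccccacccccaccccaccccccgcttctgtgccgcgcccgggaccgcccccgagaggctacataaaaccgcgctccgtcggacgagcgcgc
Dusp5: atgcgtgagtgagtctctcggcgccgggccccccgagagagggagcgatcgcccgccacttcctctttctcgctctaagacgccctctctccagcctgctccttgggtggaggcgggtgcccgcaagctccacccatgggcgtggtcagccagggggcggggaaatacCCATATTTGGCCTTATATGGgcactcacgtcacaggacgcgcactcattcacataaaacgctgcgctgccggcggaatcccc
Dusp6: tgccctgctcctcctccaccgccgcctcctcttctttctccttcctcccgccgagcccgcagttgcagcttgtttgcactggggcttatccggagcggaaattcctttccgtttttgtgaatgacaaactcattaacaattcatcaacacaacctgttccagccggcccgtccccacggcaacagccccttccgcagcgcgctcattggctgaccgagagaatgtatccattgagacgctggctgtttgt
Dusp8: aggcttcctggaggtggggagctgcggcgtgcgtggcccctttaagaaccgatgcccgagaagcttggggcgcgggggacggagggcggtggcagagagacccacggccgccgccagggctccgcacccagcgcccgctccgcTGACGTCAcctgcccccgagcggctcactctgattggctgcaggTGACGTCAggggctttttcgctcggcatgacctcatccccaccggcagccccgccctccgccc

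The full CRE was found in 2 of the 8 promoters. Dusp1 has it once, from 143 to 136 bases before the start, and Dusp8 has it at 2 places, from 107 to 100 and from 63 to 56 bases before. Of all 32851 promoters in the table, 1.55% hold it. The CArG box was found in Dusp5 alone, as an adjoining pair from 82 to 63 bases before the start, against 1.47% of all promoters. The core was present in 4 promoters (Dusp1, Dusp5, Dusp8 and Dusp16), against 17.8% of all, and the AP-1 site in 0 of 8, against 6.75%. A match is a run of letters and not a shown binding site, and no match says only that these letters are absent from this window.

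In control cultures with vehicle the members spanned a wide range of nascent levels. Dusp6 (183.5 FPKM, bounds of the file 140 to 227) and Dusp1 (157 FPKM, bounds 120.0 to 195) were highest, with overlapping bounds, and stood apart from Dusp5 (53.3 FPKM) below them. Dusp5, Dusp4 (47.8), Dusp7 (40.1) and Dusp8 (35.8) followed with bounds that overlapped from each gene to the next. Dusp10 had 18.4 FPKM, with bounds that overlapped neither Dusp8 above nor Dusp16 (3.81) below. Dusp2 (1.94) and Dusp9 (0.533) were lowest, and each overlapped its neighbour in this order. Dusp2 and Dusp9 also had the only mean normalized counts below 50 among the members, 12.2 and 5.06, so that 8 of 10 members passed that minimum.

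**Figure D1:**
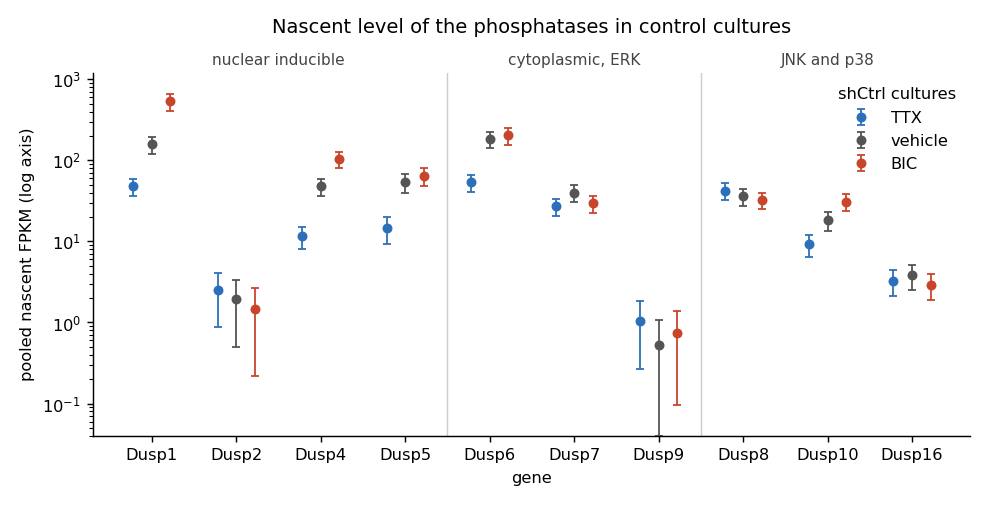
Pooled FPKM of each phosphatase (log axis) in shCtrl cultures with TTX, vehicle or BIC, as the authors deposited it. Points are 1 pooled value per condition and bars the bounds of the file (that of Dusp9 in vehicle reaches 0, below the axis); Dusp1 spans 47.7 to 536 FPKM, while Dusp8 stays between 32.6 and 42.4.

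Silencing with TTX lowered 6 members and raised 0 in the authors' deposited table for shCtrl, out of 9 with an adjusted p. The background in that table was 14.9% of 15464 genes lower and 11.8% higher, and 18.2% lower among genes whose mean normalized count reached 50. The 6 were Dusp1, Dusp4 and Dusp5 of the nuclear class, Dusp6 and Dusp7 of the cytoplasmic class and Dusp10 of the JNK and p38 class. The same 6 were lower in the authors' deposited table for TTX in shRai1, where 16.8% of genes were lower and 13.7% higher. Over all 10 members the median log2 change was -1.09 in shCtrl and -1.11 in shRai1, and over all genes with an adjusted p it was 0.0024 and 0.0045. Cell type markers also moved under TTX in the authors' deposited tables. Of 8 neuron markers, 4 were lower and 1 higher in shCtrl (median log2 change -0.21), and 3 lower and 0 higher in shRai1 (median -0.022). Of 6 astrocyte markers, 3 were lower in shCtrl with 6 of 6 below 0 (median -0.20), and 1 was lower and 1 higher in shRai1 (median -0.14). Of 5 oligodendrocyte precursor markers, 4 were lower in shCtrl (median -0.70) and 4 higher in shRai1 (median 0.47). Their part in the phosphatase values was not tested.

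Under BIC the members had no common direction. In the authors' deposited table for shCtrl, 4 members were higher (Dusp1, Dusp4, Dusp10 and Dusp16) and 2 lower (Dusp7 and Dusp8), of 10 with an adjusted p, against 17.4% of 16692 genes higher and 17.0% lower. For shRai1 the authors' deposited table added Dusp5 and Dusp6 to the rises, giving 6 higher and 2 lower, against 21.3% of 17510 genes in each direction. Among genes whose mean normalized count reached 50, 21.5% were higher and 22.1% lower in shCtrl, and 26.9% and 28.8% in shRai1, so the 2 lower of 10 lay near the background. The median over the 10 members was 0.11 in shCtrl and 0.55 in shRai1. Of the 8 neuron markers, 4 were higher and 3 lower under BIC in each arm in the authors' deposited tables (medians 0.33 in shCtrl and 0.43 in shRai1). Of 5 microglia markers, 2 were higher in shCtrl (median 0.43) and 1 in shRai1 (median 0.60), with 0 lower. Of 5 oligodendrocyte precursor markers, 1 was lower in shCtrl with 5 of 5 below 0 (median -0.24), and 0 were called in shRai1 (median 0.094). Of 6 astrocyte markers, 1 was lower in shCtrl (median -0.10) and 1 higher in shRai1 (median 0.028), and of 3 endothelial markers with a test, 1 was higher in shCtrl (median 0.25) and 0 were called in shRai1 (median 0.36). Their part in the phosphatase values was not tested. The TTX and BIC responses of an arm share its vehicle libraries, so their values are given side by side for each gene.

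Dusp1, the inducible nuclear phosphatase that acts on ERK, JNK and p38, lies on chromosome 17 from 26642536 to 26645417 (mm9). Its pooled level in shCtrl was 47.7 FPKM in TTX, 157 in vehicle and 536 in BIC, and none of the bounds overlapped. In the authors' deposited tables for shCtrl it fell by 1.52 (SE 0.22, adjusted p 3.21e-10) under TTX and rose by 1.63 (SE 0.24, adjusted p 2.02e-10) under BIC. In shRai1 the authors' deposited tables gave a fall of 1.13 (SE 0.20) and a rise of 2.27 (SE 0.20), a 4.82-fold level under BIC. Dusp1 thus had the largest estimated rise under BIC of the 10 members in both arms, and the first promoter printed above, with its single full CRE, is its own.

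Dusp4, a nuclear phosphatase of ERK and JNK, lies on chromosome 8 from 35870664 to 35882948 (mm9), and its level in shCtrl was 11.6 FPKM in TTX, 47.8 in vehicle and 103.7 in BIC with no overlap of bounds. Its estimated fall under TTX was the largest of the family, -2.34 (SE 0.13, adjusted p 5.20e-71) in shCtrl in the authors' deposited table, or 5.07-fold. In shRai1 the authors' deposited table gave -2.54 (SE 0.12). The authors' deposited tables gave Dusp4 a rise under BIC of 1.02 (SE 0.14) in shCtrl and 1.24 (SE 0.11) in shRai1. Dusp1 and Dusp4 were therefore graded over the 3 activity states, and Dusp10 of the JNK and p38 class, given below, was too.

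Dusp5, a nuclear phosphatase specific for ERK (chromosome 19, 53603808 to 53615812, mm9), and Dusp6, its cytoplasmic counterpart (chromosome 10, 98725865 to 98730123, mm9), gave nearly the same set of changes. Dusp5 had 14.6 FPKM in TTX, 53.3 in vehicle and 64.4 in BIC in shCtrl. Dusp6 had 53.6, 183.5 and 203 FPKM in the same order. For both genes the bounds in vehicle and BIC overlapped and those in TTX stood apart below. Under TTX in shCtrl, Dusp5 fell by 1.82 (SE 0.13) and Dusp6 fell by 1.89 (SE 0.13) in the authors' deposited table. The shCtrl changes under BIC in the authors' deposited table were 0.13 (SE 0.14, adjusted p 0.514) for Dusp5 and 0.09 (SE 0.14, adjusted p 0.667) for Dusp6, with 95% intervals of -0.14 to 0.40 and -0.18 to 0.37. In shRai1 both rose under BIC in the authors' deposited table, Dusp5 by 0.58 (SE 0.11, adjusted p 9.06e-07) and Dusp6 by 0.50 (SE 0.11, adjusted p 3.24e-05). Over the 4 drug responses the log2 changes of Dusp5 and Dusp6 lay 0.105 apart (Euclidean distance), the closest pair in the family. In the promoters above, Dusp5 holds the CArG boxes in capitals and the window of Dusp6 holds none of the 4 motifs.

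Dusp7, a cytoplasmic ERK phosphatase on chromosome 9 from 106270963 to 106278054 (mm9), was lower under both drugs. Its pooled level in shCtrl was 27.3 FPKM in TTX, 40.1 in vehicle and 29.6 in BIC, with bounds that overlapped between vehicle and either drug. The authors' deposited tables for shCtrl gave -0.67 (SE 0.098, adjusted p 2.38e-10) under TTX and -0.45 (SE 0.11, adjusted p 0.00018) under BIC. In shRai1 the authors' deposited tables gave -1.09 (SE 0.086) and -0.56 (SE 0.085). No other member fell under both drugs in the authors' deposited tables.

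Dusp10, which prefers p38 and JNK, lies on chromosome 1 from 185858340 to 185899515 (mm9). It followed the ERK phosphatases under silencing, with values in the authors' deposited tables of -2.06 (SE 0.10, adjusted p 9.61e-85) in shCtrl and -2.12 (SE 0.092) in shRai1. Its rise under BIC in the authors' deposited tables was 0.55 (SE 0.11) in shCtrl and 0.62 (SE 0.086) in shRai1. The pooled FPKM in shCtrl followed these directions without overlap of bounds, at 9.21 in TTX, 18.4 in vehicle and 31.1 in BIC, but its log2 ratio of TTX to vehicle was -1.0, a smaller fall than the deposited change.

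Dusp8 and Dusp16, the other members of that class, were not called under TTX. Dusp8 (chromosome 7, 149265392 to 149281189, mm9) had TTX values in the authors' deposited tables of 0.04 (SE 0.12, 95% interval -0.20 to 0.28) in shCtrl and -0.14 (SE 0.11) in shRai1, and its promoter above holds a pair of full CRE sites. Its small fall under BIC, in the authors' deposited tables -0.34 (SE 0.14, adjusted p 0.040) in shCtrl and -0.26 (SE 0.11, adjusted p 0.039) in shRai1, did not pass in either arm once the changes were centred on their median (adjusted p 0.0819 and 0.0771). Dusp16, a cytoplasmic phosphatase of JNK and p38 (chromosome 6, 134665486 to 134742646, mm9), rose under BIC in the authors' deposited tables, with 0.48 (SE 0.14, adjusted p 0.00204) in shCtrl and 0.55 (SE 0.11) in shRai1. That rise is uncertain, because the pooled FPKM went the other way, from 3.81 in vehicle to 2.93 in BIC with overlapping bounds. Among genes whose mean normalized count reached 50, BIC in shCtrl had 5378 called, of which 5363 are also listed by name in the FPKM table, and over these the FPKM had the direction of the authors' deposited table in 90.6%.

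Dusp2, best known from blood cells, and Dusp9, best known from placenta, were too low for a precise estimate. In the authors' deposited tables their SE ranged from 0.38 to 0.42 over the 7 comparisons, and neither was called in any. Dusp2 (chromosome 2, 127161895 to 127164113, mm9) had 2.50 FPKM in TTX, 1.94 in vehicle and 1.45 in BIC in shCtrl, and Dusp9 (chromosome X, 70884780 to 70888853, mm9) had 1.05, 0.533 and 0.746, all with overlapping bounds. A change was not detectable at these counts, which does not show that none occurred.

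**Figure D2:**
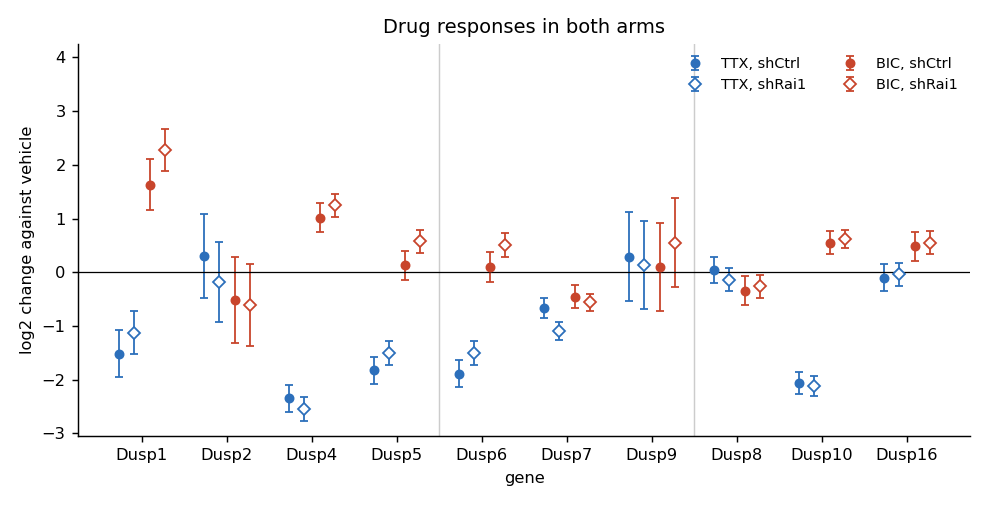
Log2 change against vehicle (y axis) for each phosphatase (x axis) under TTX (blue) and BIC (red), in shCtrl (filled circles) and shRai1 (open diamonds); bars are 95% intervals from the deposited errors. Dusp1, Dusp4 and Dusp10 lie below 0 under TTX and above 0 under BIC in both arms, Dusp5 and Dusp6 respond mainly to TTX, and Dusp7 lies below 0 under both.

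The activity range was also taken directly, as the BIC change minus the TTX change, with an upper limit for the SE because both share vehicle libraries. In shCtrl 6 members were higher under BIC than under TTX and 0 lower (Wald test with Benjamini-Hochberg adjustment over 18241 genes), against 17.1% of genes higher and 15.3% lower. Dusp4 had a range of 3.36 in shCtrl (SE at most 0.19), a 10.3-fold level in BIC against TTX. Dusp1, at 3.15 (SE at most 0.33), lay within their errors of it, followed by Dusp10 at 2.61 (SE at most 0.15). Dusp6 (1.98), Dusp5 (1.95) and Dusp16 (0.59) were the others called. In shRai1 7 members were higher and 0 lower, against 20.3% and 19.3% of genes, and the addition was Dusp7, at 0.52 (SE at most 0.12). Of the members whose mean normalized count reached 50, Dusp8 alone was called in neither arm, at -0.38 (SE at most 0.18, adjusted p 0.109) in shCtrl and -0.13 (SE at most 0.15, adjusted p 0.602) in shRai1.

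Whether Rai1 knockdown shifted the phosphatases within a treatment was then examined. The authors' deposited tables (DESeq2) called 0 members in vehicle, 0 under TTX and 0 under BIC, and 0.857%, 0.0283% and 0.00944% of genes. At an unadjusted p under 0.05 there were 4 members in vehicle and 0 under either drug, against 7.75%, 3.30% and 2.93% of all genes tested in vehicle, TTX and BIC. The 4 in vehicle were Dusp1 (-0.45, SE 0.22, unadjusted p 0.0447, adjusted p 0.435), Dusp5 (-0.37, SE 0.12, unadjusted p 0.00298, adjusted p 0.153), Dusp6 (-0.32, SE 0.13, unadjusted p 0.0103, adjusted p 0.251) and Dusp7 (0.26, SE 0.094, unadjusted p 0.00687, adjusted p 0.215) in the authors' deposited table. Dusp1, Dusp5 and Dusp6 were thus below 0 and Dusp7 above 0. Dusp4 and Dusp10 had changes of -0.03 (95% interval -0.27 to 0.20) and 0.03 (95% interval -0.16 to 0.22) there in the authors' deposited table. Oligodendrocyte precursor markers moved in the same comparison, 4 of 5 being lower (median -0.78) in the authors' deposited table. There 0 of 6 astrocyte markers were called, with 6 of 6 below 0. Of 8 neuron markers there, 1 was called higher and 7 lay below 0 (median -0.098). Between the arms under TTX, 1 of the 5 precursor markers was higher and 0 lay below 0 (median 0.50). Under BIC 1 was lower and 5 of 5 lay below 0 (median -0.49). The part of these markers in the phosphatase values was not tested.

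**Figure D3:**
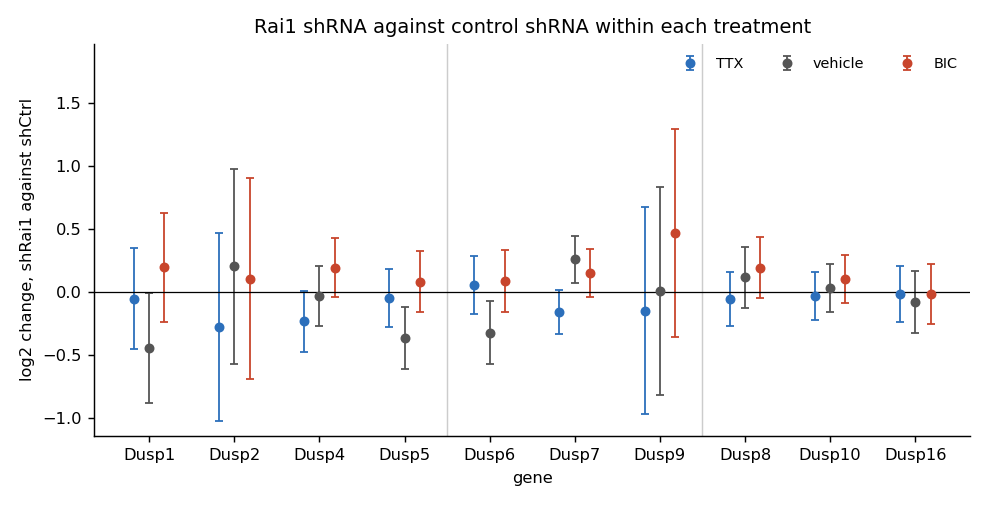
Log2 change of shRai1 against shCtrl (y axis) for each phosphatase (x axis) in TTX (blue), vehicle (grey) and BIC (red), with 95% intervals from the deposited errors. In vehicle the intervals of Dusp1, Dusp5 and Dusp6 lie below 0 and that of Dusp7 above 0, while none of the members passed after adjustment.

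The difference of each drug response between the arms was tested directly, by subtracting the shCtrl response from the shRai1 response. The count of members passing was 0 for TTX and 0 for BIC (Wald test with Benjamini-Hochberg adjustment over 18241 genes), where 0.943% and 0.0219% of genes passed, and 2 and 3 members had an unadjusted p under 0.05, against 9.05% and 3.03% of genes. For TTX these were Dusp7 (-0.42, SE 0.13, adjusted p 0.0931), whose fall was the deeper in shRai1, and Dusp6 (0.38, SE 0.17, adjusted p 0.450). For BIC they were Dusp1 (0.64, SE 0.31), Dusp5 (0.45, SE 0.18) and Dusp6 (0.41, SE 0.18), each with an adjusted p of 1.00 after rounding. The call of Dusp5 and Dusp6 under BIC in shRai1 and not in shCtrl is therefore not shown to be a difference between the arms. In simulated data with these SE, a log2 difference of 0.5 was found for 38% of the changed genes for TTX and 27% for BIC. The count of 0 members therefore does not show equal responses. Both tests use the vehicle libraries of both arms, in which shRai1 had the values below 0 for Dusp1, Dusp5 and Dusp6 and above 0 for Dusp7 that are given above.

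Genes outside the family with the closest set of drug responses were named by Euclidean distance over the 4 log2 changes, among 9847 genes whose mean normalized count reached 50 and whose interval no other gene shares. Nearest to Dusp1 were Vcan (distance 0.308), which encodes the matrix proteoglycan versican, 1190002N15Rik (0.436) and Lancl3 (0.489). Dusp4 had Fosl2, an AP-1 subunit (0.394), Nptx2, a neuronal pentraxin (0.497), and Maff (0.498). For Dusp5 they were Junb, an AP-1 subunit (0.171), Lamp5 (0.198) and Homer1, a synaptic scaffold gene (0.238), and for Dusp6 they were Pacsin3 (0.248), Lamp5 (0.258) and Junb (0.261). Dusp10 lay nearest to Rgs16 (0.361), the orphan nuclear receptor Nr4a3 (0.373) and Lgi2 (0.375), and Dusp7 to Rusc1 (0.157) and 2010300C02Rik (0.203). Dusp8 was closest to Cend1 (0.034), Srsf2 (0.059) and Trub1 (0.064), and Dusp16 to Rimklb (0.040), Sec63 (0.049) and Atrn (0.051). Small distances are common for genes with small responses, so these values describe each gene and do not rank the members.

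The rest of the MAP kinase pathway was read from 7 lists of 53 genes, of which 52 had a test. In the authors' deposited table for TTX in shCtrl, 6 were higher and 11 lower, beside 11.8% and 14.9% of all genes. For BIC in shCtrl the authors' deposited table had 12 higher and 13 lower, beside 17.4% and 17.0%. The shRai1 counts in the authors' deposited tables were 7 and 11 under TTX, beside 13.7% and 16.8%, and 13 and 16 under BIC, beside 21.3% in each direction. The list medians lay between -0.34 and 0.10 under TTX in shCtrl, and that of the 10 phosphatases was -1.09. None of the 52 was called between the arms in any treatment in the authors' deposited tables.

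Among these genes, phosphatases stood beside the family under silencing. Dusp14, an atypical dual specificity phosphatase, fell under TTX in the authors' deposited tables, with -2.204 (SE 0.20, adjusted p 2.66e-25) in shCtrl and -1.66 (SE 0.18) in shRai1. Dusp3, another atypical member that acts on ERK and JNK, fell under TTX in both arms of the authors' deposited tables, with -0.87 (SE 0.11, adjusted p 5.46e-14) in shCtrl and -0.98 (SE 0.097) in shRai1. Ptpn5, the striatal-enriched tyrosine phosphatase of ERK, fell in both arms in the authors' deposited tables, with -0.79 (SE 0.094) in shCtrl and -1.15 (SE 0.084) in shRai1; its interval overlaps another listed gene. Rps6ka5, which encodes the ERK- and p38-activated kinase MSK1, went the other way and rose under TTX by 0.89 (SE 0.088) in shCtrl and 0.74 (SE 0.077) in shRai1, from the authors' deposited tables. Under BIC the authors' deposited tables gave Rps6ka5 -0.91 in shCtrl and -0.73 in shRai1, and Ptpn5 0.78 and 0.68, all called. Dusp14 had -0.58 (adjusted p 0.0275) in shCtrl under BIC and was not called in shRai1 (-0.11). Dusp3 was called under BIC in neither arm (-0.21 and -0.09).

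The genes named by smallest adjusted p under BIC were kinases and scaffolds of the cascades. Ksr2 and Ksr1, scaffolds that hold RAF, MEK and ERK together, fell in both arms: the authors' deposited tables gave -0.97 (SE 0.081) and -0.85 (SE 0.089) in shCtrl and -1.04 (SE 0.064) and -0.94 (SE 0.070) in shRai1, and the interval of Ksr1 overlaps another listed gene. Mapk8, which encodes JNK1, rose in the authors' deposited tables, by 0.83 (SE 0.092) in shCtrl and 0.95 (SE 0.072) in shRai1. Map2k3, a kinase that activates p38, rose by 1.47 (SE 0.15) in shCtrl and 1.30 (SE 0.12) in shRai1, from the authors' deposited tables. Map2k5, the kinase upstream of ERK5, had -0.71 (SE 0.092) in shCtrl and -0.87 (SE 0.074) in shRai1 under BIC, values of the authors' deposited tables.

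**Figure D4:**
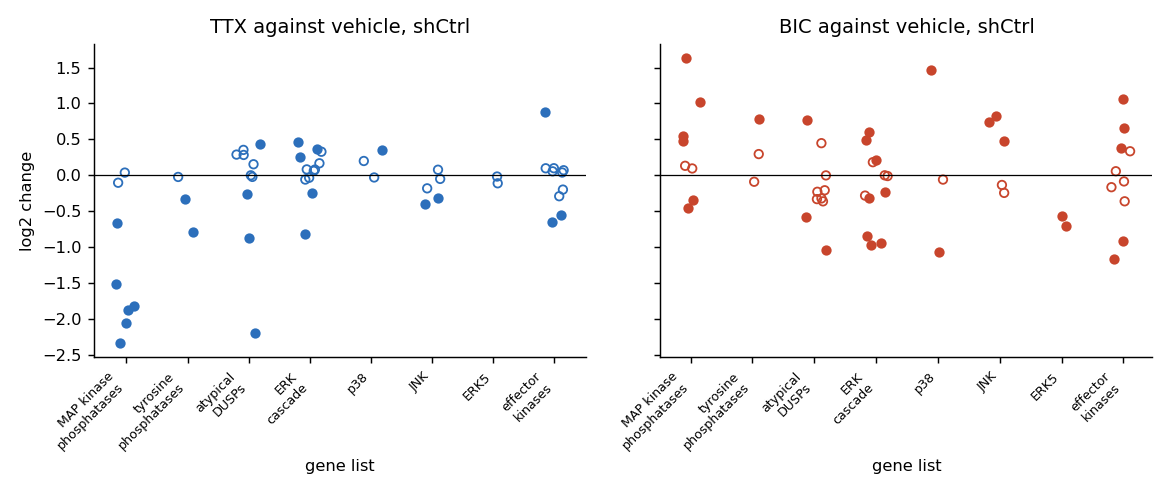
Log2 change against vehicle in shCtrl (y axis) for TTX (left) and BIC (right) of the MAP kinase phosphatases and the 7 pathway lists (x axis), 1 point per gene whose mean normalized count reached 50; filled points were called at an adjusted p under 0.05. Under TTX the phosphatases reach from -2.34 to 0.04, and the atypical dual specificity phosphatases from -2.204 to 0.43. The low end of the atypical list is Dusp14 alone, and its next lowest gene is Dusp3 at -0.87.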

How the data were processed

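Bru-seq libraries of 16 cultures in 6 groups were compared, as the labels give them. Per the submitters' processing notes the build was mm9 and the tools were TopHat2 2.1.0, Bowtie2 2.2.6 and DESeq2, with no role or order given. The authors deposited 7 comparison tables, named for DESeq2, with a log2 change, SE, p-value and adjusted p-value per gene. The mean normalized count is a signal, the mean of scaled counts by the authors. The Wald statistic is a score, per the file headers. FPKM is the authors' pooled value per condition, per the file headers. Counts per library were not used here.

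Of 22919 genes, 21192 had a test. The table for the knockdown in vehicle holds no gene names, and 20107 genes were named by their unique mean count and checked by closure of the log2 changes (largest difference 1e-09). Combined contrasts used the root of the summed squared SE, a two-sided Wald test and Benjamini-Hochberg adjustment over 18241 genes whose mean FPKM reached 0.1. They were run with Python 3.11.15, pandas 2.3.3 and scipy 1.17.1. Simulated data for them were drawn with the deposited SE, so the simulation takes those SE as right and cannot check them. A 95% interval is the change plus or minus the normal quantile times its SE. Knockdown FPKM columns were tied to no treatment, because their headings went against the comparison for TTX and followed that for BIC in part.

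Named genes were all 10 members, the 3 nearest genes of each member whose mean normalized count reached 50, and at most 4 pathway genes per comparison by smallest adjusted p; some of these genes are not reported here. Members and lists were chosen with earlier results of these data known. The planned identity between proteins was not computed, and starts are given 1-based. The design text calls the replicates biological.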

Additional observations from a re-analysis of the deposited data

How the results depend on the processing

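Among the alternatives tried for each member in the 11 contrasts, only centring alters the log2 change, and no direction changed after it. The thresholds and adjustments keep the log2 change, so for them only the call was tested. Of 512 values, 506 kept their call, a count that includes members called in no contrast, such as Dusp2 and Dusp9. The exceptions were Dusp8 under BIC, lost at a threshold of 0.01 in both arms, after centring in both arms, and in shCtrl with adjustment over all genes (adjusted p 0.0506), and Dusp7 in the TTX interaction, gained at a threshold of 0.1. That threshold moved the count of members with a TTX interaction from 0 to 1. With the last 100 bases of the promoter in place of 250, the full CRE (TGACGTCA) was found in 1 member in place of 2, since the site of Dusp1 lies outside that window. Centring removed medians of at most 0.044 in size and moved the share of rises among called genes by less than 10 percentage points. No paired analysis was possible because the files used here hold no value per library, and leaving out each replicate was not run for the same reason. For Dusp2 and Dusp9 low counts limit what can be seen.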

Other observations

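The FPKM columns headed for the knockdown arm went against that arm's comparison table for TTX in most genes compared, and followed that for BIC in part. The 316 genes compared for TTX in shRai1 were listed by name in both kinds of table. They were called with a log2 change of 1 or more either way and had a mean normalized count that reached 50. The FPKM columns went the same way in 9 of them, against 365 of 371 in shCtrl. Of 950 genes taken in the same way for BIC in shRai1, 676 went the same way, against 812 of 835 in shCtrl. Dusp1 was listed at 48.0 FPKM under the heading for untreated, 118 under that for bicuculline and 572 under that for TTX, while the shCtrl columns gave 157, 536 and 47.7 in the same order of headings. Dusp4 was listed at 8.71, 49.3 and 112 FPKM and Dusp10 at 9.55, 20.0 and 35.3 in that order. All 6 members that fell under TTX in both arms had their lowest knockdown value under the heading for untreated.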
